A study of Mus musculus with 18 samples.

Results

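The genes of glycolysis, pyruvate use and the pentose phosphate pathway were followed in adipose tissue lacking the COP9 signalosome subunit CSN8 in adipocytes. The set held 37 genes, chosen by name from textbook pathways, of the 55487 genes counted. They were 3 hexokinases, the isomerase Gpi1, 3 phosphofructokinases, 2 enzymes that set the level of fructose 2,6-bisphosphate, 2 aldolases, 7 genes of lower glycolysis, 2 lactate dehydrogenases, 4 pyruvate dehydrogenase kinases, 3 subunits of the pyruvate dehydrogenase complex, 5 genes of gluconeogenesis and glyceroneogenesis, 4 genes of the pentose phosphate pathway and Gpd1. RNA was sequenced from subcutaneous white adipose tissue (sWAT) of 4 Ctrl and 4 Csn8AKO mice at 12 weeks of age and from brown adipose tissue (BAT) of 5 Ctrl and 5 Csn8AKO mice at 4 weeks of age, with 1 mouse per library. All mice were male, fed chow and fasted for 4 h. Both genotypes carried floxed Csn8 alleles (Csn8 f/f). Ctrl mice, named WT in the labels, were littermates that served as the controls, and Csn8AKO mice, named Csn8A KO in the labels, also carried Cre under the adiponectin promoter, which removes internal exons of the gene in adipocytes. The other cells of the tissue keep the gene. Tissue and age went together, so that the effects of the tissue and of the age cannot be told apart.

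Glycolysis splits glucose into pyruvate. Hexokinases trap glucose as glucose 6-phosphate, phosphofructokinases commit it to breakdown, and pyruvate is either reduced to lactate or oxidised by the pyruvate dehydrogenase complex, which pyruvate dehydrogenase kinases switch off by phosphorylation. In adipocytes the pathway also supplies glycerol 3-phosphate, the backbone of triglyceride, through GPD1, and in the fasted state phosphoenolpyruvate carboxykinase provides it from pyruvate by glyceroneogenesis. The oxidative branch of the pentose phosphate pathway, with cytosolic malic and isocitrate dehydrogenase reactions, supplies the NADPH used to build fatty acids. Brown adipocytes burn glucose and fatty acids for heat and take up glucose at a high rate.

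Between 15835721 and 23109603 reads were counted in the sWAT libraries and between 26658593 and 66719937 in the BAT libraries. Values below are CPM, counts divided by the TMM-scaled total of the library and put on a common scale, as mean ± SD or per library. Ribosomal RNA took 1.80 to 19.8% of the reads in sWAT Ctrl and 3.96 to 47.8% in sWAT Csn8AKO, and 0.863 to 10.1% and 1.06 to 15.1% in BAT. Csn8, listed as Cops8, was 35 ± 0.911 CPM in Ctrl and 32.2 ± 2.99 in Csn8AKO sWAT (mean ± SD, n = 4 each; log2 fold change -0.12, adjusted p = 0.623), and 39.4 ± 3.22 and 32.1 ± 3.56 in BAT (n = 5 each; log2 fold change -0.30, adjusted p = 0.0211). The libraries of the genotypes overlapped in both tissues, and reads on the exons left in place and from other cells enter these counts. The summed level of 12 adipocyte markers was 23352 to 30307 CPM in sWAT Ctrl and 7805 to 18780 in sWAT Csn8AKO, and 14250 to 16890 and 13541 to 15900 in BAT. Ucp1, which defines brown fat, was 1568 to 4440 CPM in BAT Ctrl, 2412 to 5243 in BAT Csn8AKO, and at most 6.89 in sWAT. Skeletal muscle markers stood high in the libraries of sWAT Ctrl replicate 3 and Csn8AKO replicate 4 and of BAT Csn8AKO replicates 1 and 5, and T and B cell markers in sWAT Ctrl replicate 1 and Csn8AKO replicate 2. In whole tissue, fewer cells of a type and less RNA per cell cannot be told apart.

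In sWAT, 1 gene of the set rose in Csn8AKO, Hk3, and 3 fell, Pfkfb1, Pck1 and Gpd1, of the 34 that passed the filter on low counts. Differences were called at an adjusted p under 0.05 in edgeR's quasi-likelihood test, where 5.31% of all genes tested were called (2.3% higher and 3% lower). All 4 changed by a log2 fold change of at least 1 in size, against 1.41% of all genes tested that rose by as much and 1.91% that fell. Aldoc, Fbp1 and Fbp2 did not pass the filter in sWAT. The median log2 fold change of the 34 genes was -0.41, and 27 of them had a negative value. Over all 18843 genes tested in sWAT the median was 0.03. With the muscle-high libraries left out, Hk3 was higher and Pfkfb1 was the 1 gene lower, and with the lymphocyte-high libraries left out 1 was higher and 6 were lower. The call of Pfkfb1 held in all 8 fits that left out 1 library, and those of Pck1 and Gpd1 in 3 of them, with adjusted p up to 0.0978 and 0.111. They were lost without any of Ctrl replicates 2, 3 and 4 and Csn8AKO replicates 1 and 3, each of which left Pfkfb1 as the 1 gene lower.

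In BAT all 37 genes passed the filter, 7 rose and 15 fell, where 31.9% of all genes tested were called (16% higher and 15.8% lower). The 7 were Hk1, Hk3, Pfkl, Pfkp, Pdk3, Pcx and Pgd. The 15 were Pfkm, Pfkfb1, Pgk1, Eno3, Pkm, Ldha, Ldhb, Pdk1, Pdk2, Pdha1, Fbp2, Pck1, Pck2, Tkt and Gpd1. Of these, 3 were higher by a log2 fold change of at least 1 (Hk1, Hk3 and Pdk3), against 6.85% of all genes tested, and 3 were lower by as much (Pfkm, Pdk1 and Fbp2), against 4.16%. The median log2 fold change of the 37 genes was -0.29, with 26 negative, and that of all 22345 genes tested in BAT was 0.01. Without BAT Csn8AKO replicates 1 and 5, in which muscle markers stood high, 6 genes were higher and 10 lower. The calls of 11 genes held in each of the 10 fits that left out 1 library and in the 8 other settings: Hk1, Hk3, Pfkm, Pfkp, Pfkfb1, Pdk1, Pdk2, Pdk3, Pdha1, Fbp2 and Gpd1. The calls of Pfkl, Eno3, Ldha, Pck1, Pck2, Pcx and Pgd were lost when some single libraries were left out.

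**Figure D1:**
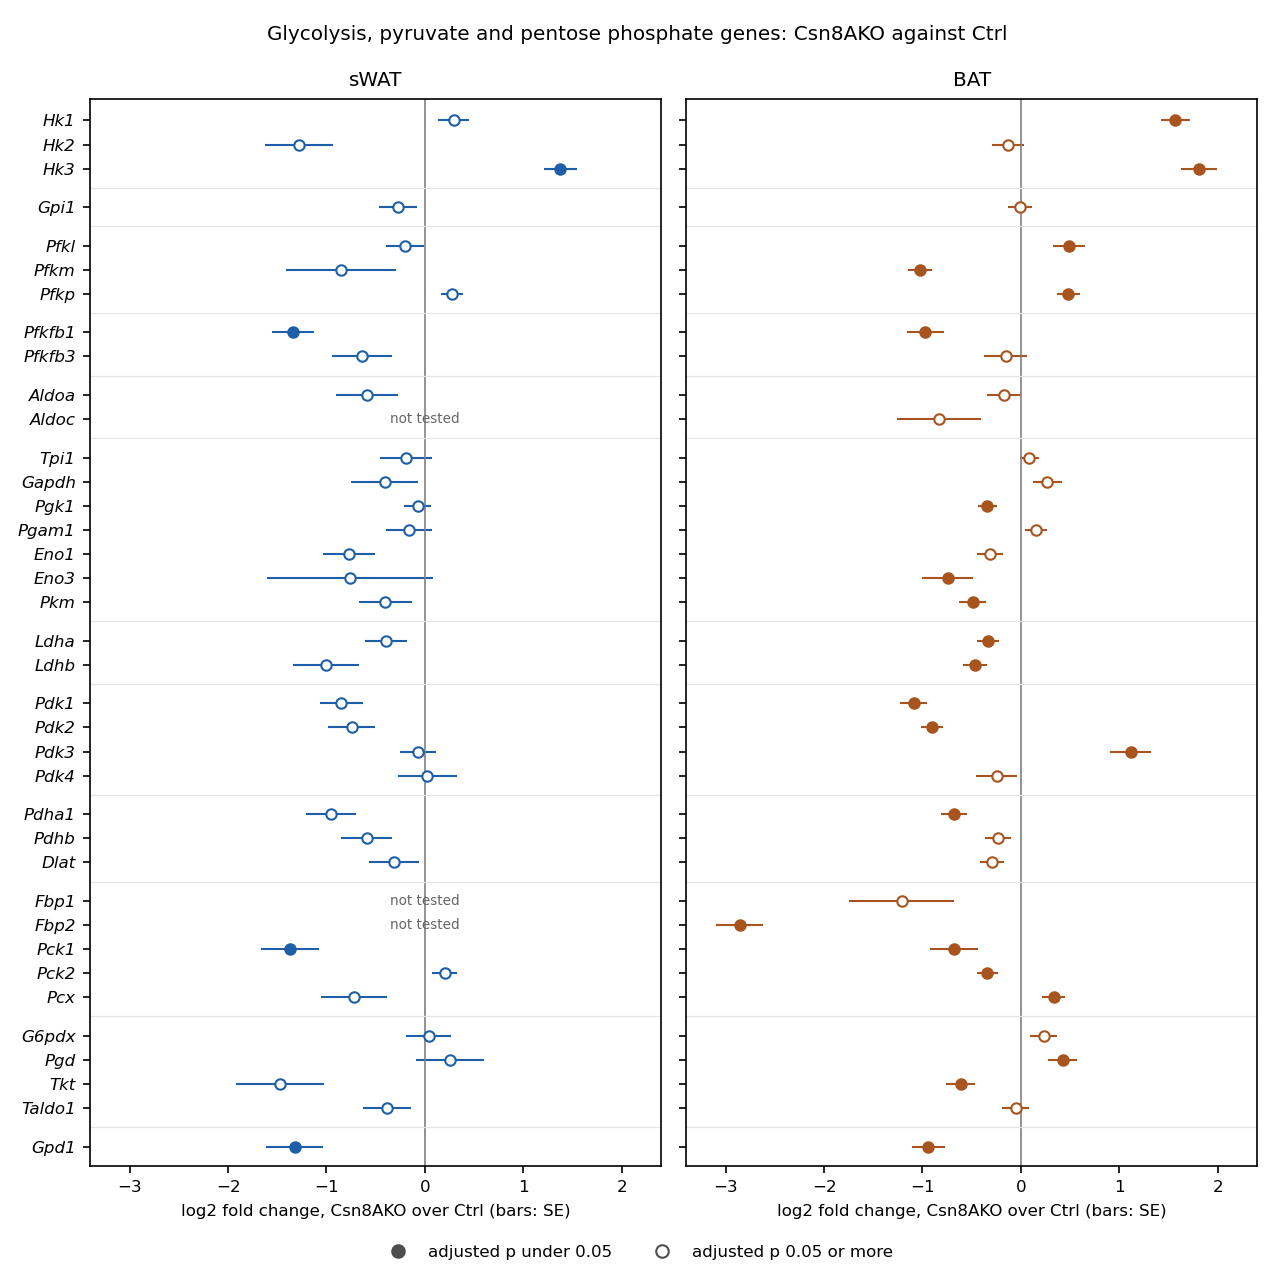
Log2 fold change of Csn8AKO over Ctrl for each of the 37 genes in sWAT (left) and BAT (right), by role from hexokinases at the top to Gpd1 at the bottom, with bars of 1 SE and filled points for an adjusted p under 0.05. In sWAT 4 points are filled, and in BAT 22, from Fbp2 at -2.86 to Hk3 at 1.81.

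The 4 genes called in sWAT were also called in BAT, in the same direction. They were Hk3, Pfkfb1, Pck1 and Gpd1. The same held for 74.7% of all genes called in sWAT and tested in BAT. Of the 34 genes of the set tested in both tissues, these 4 were called in both, 17 in BAT but not in sWAT and 13 in neither, where 3.96%, 31.3% and 63.4% of all genes tested in both were so called, the first of these in the same direction. The libraries of the genotypes did not overlap for 8 genes in sWAT (2 higher and 6 lower), where this held for 14% of all genes tested (5.8% higher and 8.23% lower), and for 11 in BAT (3 higher and 8 lower), where it held for 21% (10.1% and 10.9%).

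The hexokinases differed among themselves. Hk3 (ENSMUSG00000025877, chr13:55005985-55021385, minus strand, GRCm38), a hexokinase of myeloid cells, was 10.5, 9.27, 11.3 and 11.7 CPM in the Ctrl libraries of sWAT and 24, 25.6, 36 and 25.4 CPM in the Csn8AKO libraries. The groups did not overlap, and the rise was 2.6-fold (log2 fold change 1.38, SE 0.17, adjusted p = 0.00275). Over the 9 other settings the adjusted p ran from 6.12e-10 to 0.0575, with library size alone. In BAT its level was low, at 1.78, 2.08, 1.56, 1.66 and 1.84 CPM in Ctrl against 7.62, 4.42, 4.85, 6.51 and 7.82 in Csn8AKO. Every Csn8AKO library stood above every Ctrl library, with a 3.5-fold rise (log2 fold change 1.81, SE 0.18, adjusted p = 8.32e-06). These levels rested on 69 to 123 reads in BAT Ctrl and 112 to 476 in BAT Csn8AKO. Hk3 shares exon bases with Unc5a on the opposite strand, and whether strand was used in counting is not given in the sources used here. Unc5a rose in BAT by 0.66 on the log2 scale (adjusted p = 0.0115) and had -0.11 in sWAT (adjusted p = 0.904).

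Hk1 (ENSMUSG00000037012, chr10:62268855-62379908, minus strand), the hexokinase found in nearly all cells, was 40, 38.6, 50.3, 49.3 and 50.7 CPM in BAT Ctrl and 125, 189, 116, 142 and 109 CPM in BAT Csn8AKO. The lowest Csn8AKO library was above the highest Ctrl library, and the rise was 2.97-fold (log2 fold change 1.57, SE 0.14, adjusted p = 5.29e-06). In sWAT Hk1 was 54.2, 47.5, 41.3 and 37 CPM in Ctrl and 48.2, 60.8, 63.5 and 47.9 in Csn8AKO, and the groups overlapped (log2 fold change 0.29, SE 0.16, adjusted p = 0.337). Hk2, the insulin-responsive hexokinase of fat and muscle, was 655, 745, 1152, 896 and 882 CPM in BAT Ctrl and 605, 742, 1058, 803 and 744 in BAT Csn8AKO (adjusted p = 0.586). Its BAT groups overlapped over most of their range. In sWAT Hk2 was 137, 351, 172 and 214 CPM in Ctrl and 57.5, 72.1, 88.2 and 142 in Csn8AKO (log2 fold change -1.28, SE 0.35, adjusted p = 0.0705). Of the Csn8AKO libraries the highest alone reached the range of Ctrl, and the adjusted p ran from 0.00384 with DESeq2 to 0.161 without a filter over the other settings.

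**Figure D2:**
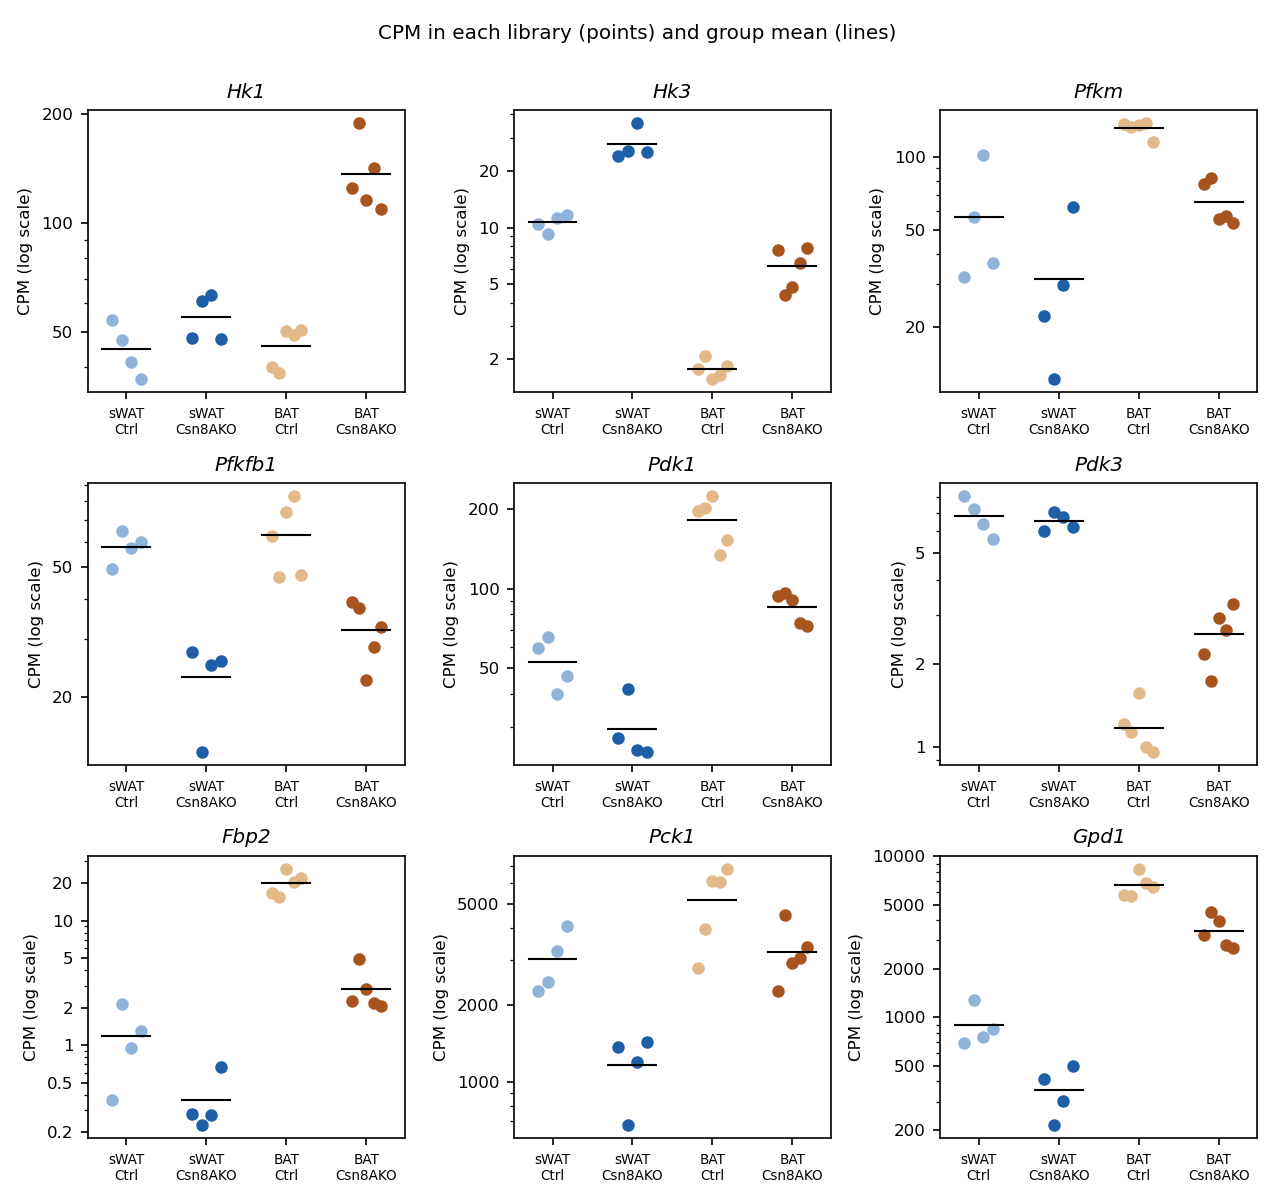
CPM on a log scale in each library (points) and the group mean (lines) for the 9 genes with an adjusted p under 0.05 and a log2 fold change of at least 1 in either direction in at least 1 tissue. In BAT the Csn8AKO points of Hk1, Hk3 and Pdk3 lie above all Ctrl points, and those of Pfkm, Pfkfb1, Pdk1, Fbp2 and Gpd1 below them, while the Pck1 points overlap.

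The phosphofructokinases moved in opposite directions in BAT. Pfkm (ENSMUSG00000033065, chr15:98092589-98132451, plus strand), the muscle form, was 137, 133, 136, 138 and 116 CPM in Ctrl and 77.2, 82, 55.5, 57 and 53.2 in Csn8AKO. The groups were apart, with a 2.03-fold fall (log2 fold change -1.02, SE 0.12, adjusted p = 3.29e-05). Pfkl, the liver form, was 749, 714, 1107, 912 and 923 CPM in Ctrl and 983, 1741, 1141, 1254 and 1057 in Csn8AKO (log2 fold change 0.49, SE 0.16, adjusted p = 0.0346). Pfkp, the platelet form, was 90.9, 98.6, 125, 111 and 126 CPM against 123, 146, 172, 167 and 163 (log2 fold change 0.48, SE 0.11, adjusted p = 0.00523). For both of these the groups overlapped at their edges. In sWAT Pfkm was 32.1, 56.4, 102 and 36.6 CPM in Ctrl and 22.1, 12.1, 29.6 and 62.3 in Csn8AKO, with the highest value of each group in its muscle-high library (adjusted p = 0.462). Pfkl was 117 to 198 CPM in sWAT Ctrl and 103 to 158 in Csn8AKO, and Pfkp 69.2 to 81.6 and 84.9 to 95.5, and neither passed the test (adjusted p = 0.633 and 0.2). A gene model that shares exon bases with Pfkm on the same strand, Gm26513, also fell in BAT (log2 fold change -1.58, adjusted p = 0.000967) at 1.16 CPM in Ctrl.

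Pfkfb1 (ENSMUSG00000025271, chrX:150588229-150643878, plus strand) encodes an enzyme that both makes and breaks down fructose 2,6-bisphosphate, the strongest activator of phosphofructokinase. It fell in both tissues. In sWAT it was 49.4, 64.8, 57.4 and 59.7 CPM in Ctrl and 27.5, 13.4, 25 and 25.7 in Csn8AKO, a 2.53-fold fall with no overlap (log2 fold change -1.34, SE 0.21, adjusted p = 0.0077). The BAT libraries gave 62.4, 46.8, 74.2, 83.1 and 47.2 CPM in Ctrl and 39, 37.5, 22.5, 28.4 and 32.7 in Csn8AKO. These were also apart, with a 1.96-fold fall (log2 fold change -0.97, SE 0.19, adjusted p = 0.00244). Apex2, which shares exon bases with Pfkfb1 on the opposite strand, fell by 0.63 on the log2 scale in sWAT (adjusted p = 0.0205) and had -0.05 in BAT. Pfkfb3, whose product mainly makes fructose 2,6-bisphosphate, was 289 to 691 CPM in sWAT Ctrl and 200 to 432 in sWAT Csn8AKO (adjusted p = 0.271), and 528 to 1382 and 649 to 1050 in BAT (adjusted p = 0.631), with overlap in both.

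Most of the steps from aldolase to pyruvate did not pass the test. In sWAT none of Aldoa and the 7 lower glycolysis genes was called by edgeR or DESeq2. Of these 8, Eno1 alone had an unadjusted p under 0.05 and no overlap (291 to 652 CPM in Ctrl and 205 to 249 in Csn8AKO, adjusted p = 0.129). In BAT 3 of the 7 fell: Pgk1, which makes the first ATP of the pathway (384 ± 21.8 CPM in Ctrl and 303 ± 37.7 in Csn8AKO, log2 fold change -0.34), Pkm, which makes pyruvate (1868 ± 147 and 1329 ± 287, -0.49), and Eno3, the muscle enolase (9.71 ± 1.2 and 5.78 ± 2.74, -0.74; SD, n = 5 each). Their adjusted p values were 0.0146, 0.0149 and 0.0436, and the groups overlapped for each. Over all genes tested in BAT, 15.8% fell. Without the muscle-high libraries Pgk1 and Pkm had their highest adjusted p over the other settings, 0.108 and 0.089. Tpi1, Gapdh, Pgam1 and Eno1 had log2 fold changes of 0.09, 0.27, 0.15 and -0.31 in BAT and were not called. Aldoa, the main aldolase, was 2818 to 3642 CPM in BAT Ctrl and 2092 to 4211 in Csn8AKO (adjusted p = 0.48), and Gpi1 1017 to 1205 and 820 to 1352 (adjusted p = 0.963). Aldoc was 2.03 to 5.28 CPM in BAT Ctrl and 0.602 to 3.44 in Csn8AKO (adjusted p = 0.163). Gapdh, Eno1 and other genes of this group have near-identical copies elsewhere in the genome, and reads that align to several places were not counted.

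Both lactate dehydrogenases fell in BAT. Ldhb, the form of oxidative tissues, was 696, 654, 720, 755 and 686 CPM in Ctrl and 523, 679, 432, 451 and 460 in Csn8AKO (log2 fold change -0.46, SE 0.12, adjusted p = 0.01, and 0.15 with all 4 groups in 1 fit, the highest over the other settings). Ldha, which favours lactate production, was 990 to 1252 CPM and 751 to 1021 (log2 fold change -0.34, SE 0.11, adjusted p = 0.0328). In each case Csn8AKO replicate 2 alone among the Csn8AKO libraries reached into the Ctrl range. In sWAT Ldhb was 76.2 to 138 CPM in Ctrl and 23.1 to 79.8 in Csn8AKO (log2 fold change -1.01, adjusted p = 0.129), and Ldha 466 to 750 and 336 to 541 (adjusted p = 0.339).

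Among the pyruvate dehydrogenase kinases, Pdk1 and Pdk2 fell and Pdk3 rose in BAT. Pdk1 (ENSMUSG00000006494, chr2:71873224-71903858, plus strand) was 196, 201, 224, 135 and 153 CPM in Ctrl and 94, 96.2, 90.8, 74.1 and 72.1 in Csn8AKO. All Csn8AKO values lay below all Ctrl values, with a 2.13-fold fall (log2 fold change -1.09, SE 0.14, adjusted p = 5.86e-05). Pdk2 was 445, 442, 519, 507 and 500 CPM in Ctrl and 258, 329, 239, 234 and 228 in Csn8AKO, also without overlap (log2 fold change -0.91, SE 0.11, adjusted p = 3.89e-05). Pdk3 (ENSMUSG00000035232, chrX:93764607-93832201, minus strand) was 1.22, 1.13, 1.56, 0.996 and 0.956 CPM in Ctrl and 2.16, 1.73, 2.92, 2.64 and 3.28 in Csn8AKO, from 44 to 193 reads per library. The Pdk3 groups were apart too, with a 2.17-fold rise (log2 fold change 1.11, SE 0.21, adjusted p = 0.00106). Pdk4, the kinase induced by fasting, was 1268, 1446, 1775, 1445 and 1988 CPM in Ctrl and 813, 2061, 1165, 1260 and 1385 in Csn8AKO (adjusted p = 0.407), and Csn8AKO replicate 2 held the highest value of all 10.

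In sWAT none of the 4 kinases was called by edgeR, 2 had an unadjusted p under 0.05 (Pdk1 and Pdk2), and DESeq2 called Pdk1. Pdk1 was 59.6, 65.8, 40.2 and 46.7 CPM in Ctrl and 27.4, 41.8, 24.5 and 24.1 in Csn8AKO (log2 fold change -0.85, SE 0.22, adjusted p = 0.0505), and 1 Csn8AKO library reached into the range of Ctrl. Its adjusted p ran from 0.00695 to 0.394 over the 9 other settings and was under 0.05 in 5 of them. Pdk2 had 66.1, 107, 109 and 100 CPM against 56.4, 36, 57.2 and 78.5 (adjusted p = 0.105), Pdk3 8.06, 7.24, 6.4 and 5.61 against 6.02, 7.06, 6.76 and 6.21 (adjusted p = 0.881), and Pdk4 47.3, 108, 103 and 113 against 71.6, 68.4, 112 and 125 (adjusted p = 0.974). The groups of Pdk3 and Pdk4 overlapped throughout. Of the subunits of the complex that these kinases act on, Pdha1, the E1 alpha subunit and the phosphorylated one, fell in BAT from 1657 ± 140 to 1035 ± 199 CPM (SD, n = 5 each; log2 fold change -0.68, SE 0.13, adjusted p = 0.00119) with no overlap. For Pdhb and Dlat the BAT values were -0.23 and -0.29 on the log2 scale (adjusted p = 0.202 and 0.0913). In sWAT Pdha1 was 209 to 458 CPM in Ctrl and 109 to 192 in Csn8AKO (log2 fold change -0.95, adjusted p = 0.0626), without overlap.

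Fbp2 (ENSMUSG00000021456, chr13:62836877-62858422, minus strand), the fructose 1,6-bisphosphatase of muscle and other tissues outside the liver, which reverses the phosphofructokinase step, had the largest fold change of the set in BAT. Its level was 16.8, 15.6, 26.1, 20.6 and 22.2 CPM in Ctrl and 2.26, 4.93, 2.82, 2.19 and 2.07 CPM in Csn8AKO. The highest Csn8AKO library was below the lowest Ctrl library, and the fall was 7.24-fold (log2 fold change -2.86, SE 0.24, adjusted p = 3.85e-06), from 651 to 1619 reads per Ctrl library to 62 to 160 per Csn8AKO library. Leaving out any 1 of the 10 libraries kept the log2 fold change between -3.13 and -2.75. In sWAT, where it was not tested, Fbp2 was 0.362, 2.13, 0.948 and 1.3 CPM in Ctrl and 0.278, 0.226, 0.276 and 0.673 in Csn8AKO. Fbp1, the liver form, was 0.155, 0.22, 0.307, 0.572 and 0.27 CPM in BAT Ctrl and 0.135, 0.158, 0, 0.109 and 0.267 in BAT Csn8AKO (adjusted p = 0.102). It was near the limit of detection in both tissues, with at most 32 reads in any library.

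The genes with a log2 fold change of at least 1 in BAT that have a single start in the RefSeq promoter table (GRCm38.p6) were Fbp2, Hk3 and Pdk3. The 250 bases before each start are shown in the direction of the gene, with ACGTG on either strand in capitals, because this run is the core of the sites of hypoxia-inducible factors, known regulators of glycolytic genes, and lies within CACGTG, the E-box bound by MLX and other factors.
Fbp2, chr13:62858401-62858650, minus strand: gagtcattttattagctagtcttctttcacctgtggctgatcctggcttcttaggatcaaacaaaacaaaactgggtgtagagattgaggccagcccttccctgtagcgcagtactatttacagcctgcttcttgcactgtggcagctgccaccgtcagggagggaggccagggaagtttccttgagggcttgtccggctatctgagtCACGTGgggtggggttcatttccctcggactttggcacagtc
Hk3, chr13:55021386-55021635, minus strand: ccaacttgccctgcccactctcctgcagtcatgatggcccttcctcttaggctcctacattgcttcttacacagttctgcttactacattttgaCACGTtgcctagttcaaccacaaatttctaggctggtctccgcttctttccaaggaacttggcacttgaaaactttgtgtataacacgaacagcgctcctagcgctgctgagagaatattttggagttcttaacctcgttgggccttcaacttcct
Pdk3, chrX:93832151-93832400, minus strand: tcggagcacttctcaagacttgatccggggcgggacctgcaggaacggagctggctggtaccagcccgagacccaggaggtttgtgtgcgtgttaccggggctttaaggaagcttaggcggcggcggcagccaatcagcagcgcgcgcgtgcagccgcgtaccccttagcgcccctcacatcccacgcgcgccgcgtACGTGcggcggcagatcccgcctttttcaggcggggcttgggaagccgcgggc
Each window held the letters. The match nearest the RefSeq start was 41 bases before it in Fbp2, where it forms CACGTG, 156 bases in Hk3 and 53 bases in Pdk3. The counted gene models of Fbp2 and Pdk3 reach into their windows, to 62858422 and 93832201, so their starts differ from those of RefSeq. Of the 32851 windows of this length in the table, 16.6% held ACGTG on either strand and 6.02% held CACGTG. Of the 55 windows of the genes described here, 30.9% and 10.9% did, and 14 of the 36 genes with a window had ACGTG in at least 1 of theirs. A match of letters does not show that a factor binds there.

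Pck1 (ENSMUSG00000027513, chr2:173153048-173159273, plus strand), the phosphoenolpyruvate carboxykinase of the cytosol and the key enzyme of glyceroneogenesis, was 2276, 2467, 3264 and 4075 CPM in sWAT Ctrl and 1372, 674, 1195 and 1430 in sWAT Csn8AKO. The groups were apart, with a 2.59-fold fall (log2 fold change -1.37, SE 0.30, adjusted p = 0.0294). In BAT it was 2786, 3977, 6111, 6100 and 6848 CPM in Ctrl and 2267, 4509, 2938, 3055 and 3366 in Csn8AKO, which overlapped (log2 fold change -0.68, SE 0.24, adjusted p = 0.0458). Without the muscle-high libraries the adjusted p was 0.185 in BAT and 0.102 in sWAT, the highest over the other settings in each tissue (from 0.0155 and 4.71e-05). Pck2, the mitochondrial form, was 36.6, 39.8, 30.4, 38 and 42.6 CPM in BAT Ctrl and 36.6, 29.3, 25.4, 27.3 and 29.3 in Csn8AKO (log2 fold change -0.34, SE 0.11, adjusted p = 0.0288), and 22.3 to 28.3 and 25.8 to 30.7 in sWAT (adjusted p = 0.427). Pcx, pyruvate carboxylase, which feeds both pathways from pyruvate, rose in BAT from 1443 ± 133 to 1820 ± 240 CPM (SD, n = 5 each; log2 fold change 0.33, SE 0.12, adjusted p = 0.0419) while its sWAT log2 fold change was -0.72 (adjusted p = 0.262).

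Gpd1 (ENSMUSG00000023019, chr15:99717515-99725005, plus strand), which turns the glycolytic intermediate dihydroxyacetone phosphate into glycerol 3-phosphate, fell in both tissues. In sWAT it was 690, 1273, 759 and 847 CPM in Ctrl and 413, 213, 302 and 497 in Csn8AKO, a 2.5-fold fall (log2 fold change -1.32, SE 0.29, adjusted p = 0.0321). The BAT values were 5735, 5622, 8346, 6830 and 6416 CPM in Ctrl and 3259, 4495, 3941, 2795 and 2697 in Csn8AKO, a 1.92-fold fall (log2 fold change -0.94, SE 0.17, adjusted p = 0.000736). In neither tissue did the genotypes overlap. In sWAT the adjusted p of Gpd1 was 0.0567 without the muscle-high libraries and ran from 0.000251 to 0.109 over the other settings and up to 0.111 with 1 library left out.

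In the pentose phosphate pathway 1 of the 4 genes rose and 1 fell in BAT, where 16% of all genes tested rose and 15.8% fell. Pgd, the second NADPH-producing step, rose from 422 ± 65.4 to 566 ± 109 CPM (SD, n = 5 each; log2 fold change 0.42, SE 0.14, adjusted p = 0.0356), and G6pdx, the first, was 188 to 280 CPM in Ctrl and 208 to 364 in Csn8AKO (adjusted p = 0.232). Tkt, transketolase, which returns pentose carbon to glycolysis, fell without overlap, from 5896, 5401, 5269, 4425 and 4996 CPM to 3578, 4225, 3406, 3299 and 2482 (log2 fold change -0.61, SE 0.14, adjusted p = 0.00501, and 0.15 with all 4 groups in 1 fit, the highest over the other settings). Taldo1, transaldolase, differed by -0.05 on the log2 scale, which did not pass the test (adjusted p = 0.796). Rpia, ribose 5-phosphate isomerase, a further non-oxidative step from the list of other pathway genes, rose in BAT from 13.5 to 20.1 CPM to 27 to 44.2 without overlap (0.96, adjusted p = 0.000233), and had 0.58 in sWAT (adjusted p = 0.0549). In sWAT none of the 4 was called by edgeR, Tkt had an unadjusted p under 0.05, and Tkt was called by DESeq2. Tkt was 600, 2244, 679 and 617 CPM in Ctrl and 388, 247, 424 and 433 in Csn8AKO (log2 fold change -1.47, SE 0.45, adjusted p = 0.0983). The groups did not overlap, and Ctrl replicate 2 stood far above the other Ctrl libraries. G6pdx and Pgd had log2 fold changes of 0.04 and 0.25 in sWAT, and Ctrl replicate 2 was the highest Ctrl library for both.

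Shares within a family of isozymes, taken from reads per base of exon, do not depend on the scaling between libraries. They do depend on the exon length used for each gene, such as 13401 bases for Pfkp, 6675 for Pfkl and 3340 for Pfkm. In BAT Ctrl, Hk2 made up 95.5 to 96.8% of the 3 hexokinases, Hk1 2.96 to 4.09% and Hk3 0.21 to 0.44%. In BAT Csn8AKO the shares were 84.2 to 92.3% for Hk2, 7.06 to 15% for Hk1 and 0.69 to 1.75% for Hk3. Hk2 thus remained the main hexokinase transcript in every BAT library, and each of the 3 shares was apart between the genotypes. In sWAT, Hk2 took 71.3 to 87.9% in Ctrl and 44.2 to 65.6% in Csn8AKO, Hk3 3.76 to 8.86% and 18.9 to 30.6%, and Hk1 8.32 to 19.8% and 15.4 to 27.3%. The Hk2 and Hk3 shares did not overlap in sWAT, and the Hk1 shares did.

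Among the phosphofructokinases, Pfkl made up 69.4 to 76.8% in BAT Ctrl and 82 to 88% in BAT Csn8AKO, and Pfkm 18.8 to 25.8% and 7.86 to 12.9%, both without overlap. The sWAT shares overlapped, with Pfkm from 27.7 to 57.3% in Ctrl and from 13.8 to 38% in Csn8AKO. Pdk4 was the largest of the 4 kinases in BAT, with 68.5 to 76.1% in Ctrl and 71.1 to 83.4% in Csn8AKO, and Pdk3 took at most 0.09% in Ctrl and at most 0.27% in Csn8AKO. In sWAT the Pdk4 share was 29.8 to 44.6% in Ctrl and 46.2 to 57.2% in Csn8AKO, and that of Pdk2 was 44 to 48.2% and 29.2 to 40.5%, neither overlapping. Pck1 took at least 98.3% of the phosphoenolpyruvate carboxykinases in each library. Of the lactate dehydrogenases Ldha took 64.3 to 76.6% in sWAT Ctrl and 69.4 to 87.3% in sWAT Csn8AKO, and 40.3 to 45.2% and 41.6 to 48.4% in BAT, with overlap in both tissues.

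**Figure D3:**
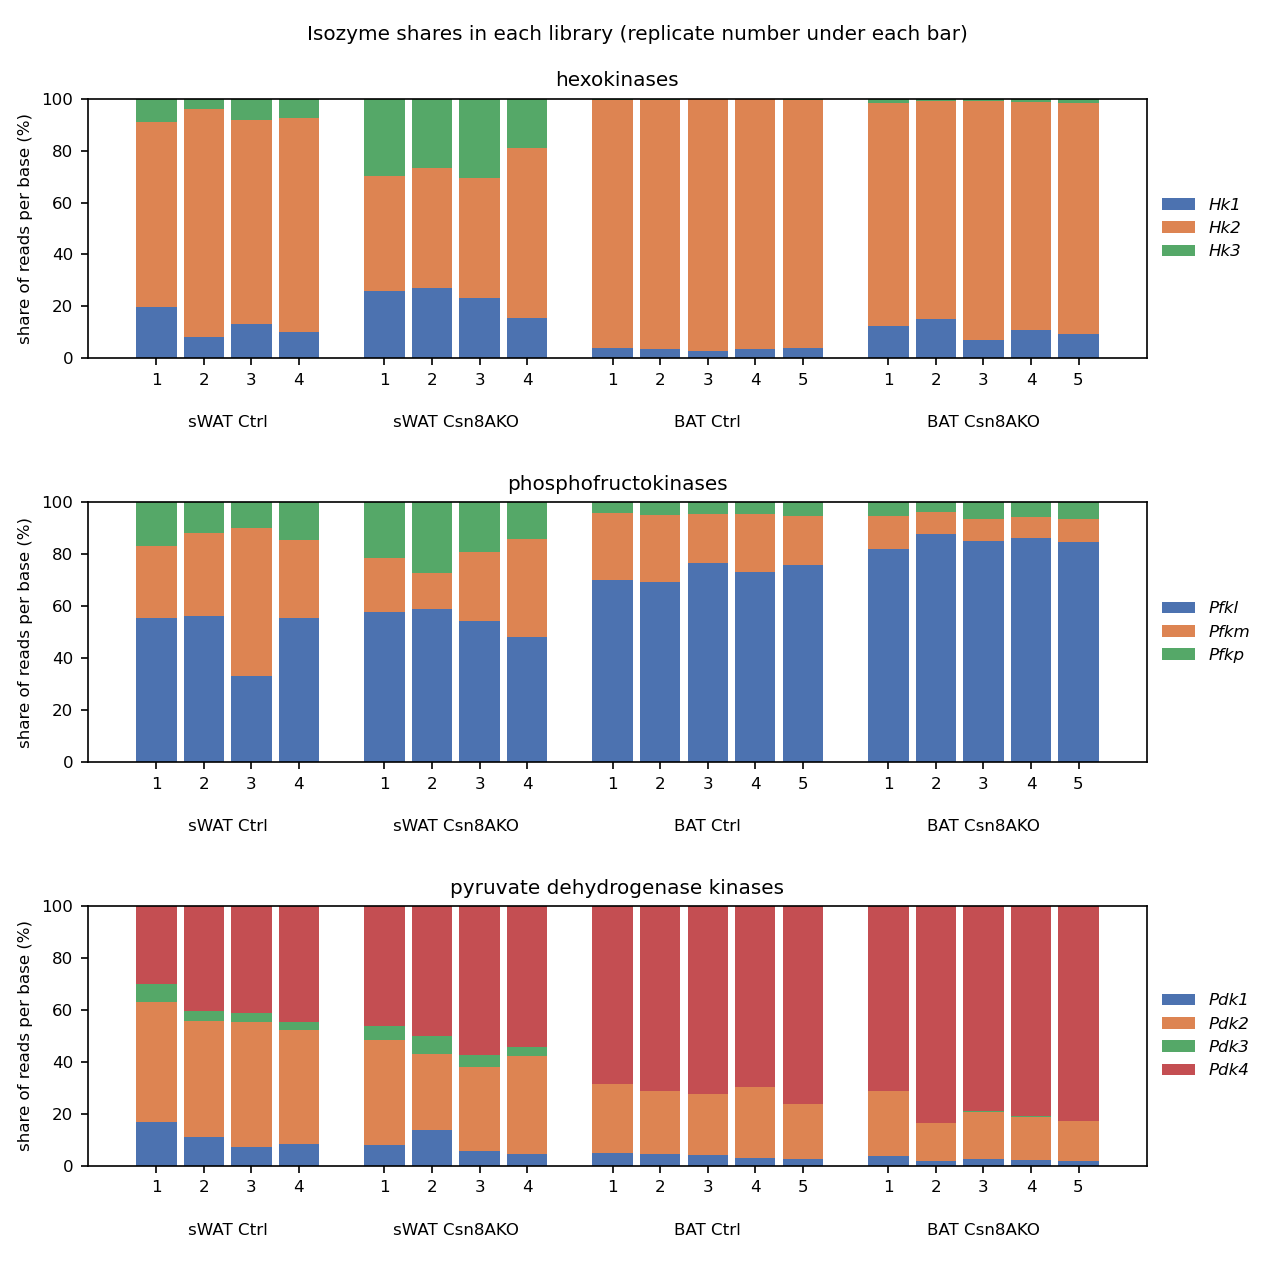
Share in percent of each isozyme in the reads per base of its family, 1 bar per library, for hexokinases (top), phosphofructokinases (middle) and pyruvate dehydrogenase kinases (bottom), with the replicate number under each bar. The Hk2 share is smaller in Csn8AKO than in Ctrl in both tissues, and in BAT the Pfkm share falls from 18.8 to 25.8% in Ctrl to 7.86 to 12.9% in Csn8AKO.

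Whether the effect of the genotype differed between the tissues was tested over all 18 libraries, where 2.36% of all genes tested were called (1.61% more positive in BAT). It differed for 2 of the 37 genes, both more positive in BAT. For Hk1 the log2 fold change was greater in BAT than in sWAT by 1.27 (SE 0.22, adjusted p = 0.00392), and the call held in all 18 fits that left out 1 library. For Pdk3 it was greater by 1.17 (SE 0.28, adjusted p = 0.0280). This call was lost without any of sWAT Ctrl replicates 1 and 2, sWAT Csn8AKO replicate 1, BAT Ctrl replicates 2, 4 and 5 and BAT Csn8AKO replicates 3, 4 and 5, with adjusted p between 0.051 and 0.0616, and in 4 of the 7 other settings, with up to 0.124 without the 4 muscle-high libraries. For Pck2, Pcx and Hk2 the differences of -0.55, 1.05 and 1.15 did not pass the test (adjusted p = 0.0957, 0.139 and 0.147).

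Of 71 other genes of the same pathways, 61 were tested in sWAT, where none rose and 9 fell in edgeR's test (7 of those with a positive value had an unadjusted p under 0.05, and DESeq2 called 1 of them), and 63 in BAT, where 13 rose and 20 fell. Of all genes tested, 2.3% rose and 3% fell in sWAT, and 16% rose and 15.8% fell in BAT. Among those that handle lactate and pyruvate, some fell and others rose in BAT. Slc16a7, the monocarboxylate transporter MCT2, was 25.1 to 44.7 CPM in Ctrl and 6.24 to 11.7 in Csn8AKO (log2 fold change -2.14, adjusted p = 1.2e-05). Ldhd, the D-lactate dehydrogenase of mitochondria, was 140 to 171 and 48.8 to 70.8 CPM (-1.35, adjusted p = 5.51e-07), and Gpt, alanine aminotransferase, 95.6 to 127 and 39.6 to 53.1 (-1.28, adjusted p = 6.92e-07). For these 3 no libraries overlapped. Gpt2, the mitochondrial alanine aminotransferase, rose without overlap, from 8.18 to 10.2 CPM to 12.3 to 24.6 (0.91, adjusted p = 0.000552), and the monocarboxylate transporters Slc16a1 and Slc16a3 rose with overlap (0.60 and 0.47, adjusted p = 0.00907 and 0.0489). Bpgm, which makes 2,3-bisphosphoglycerate, also fell without overlap (log2 fold change -1.08, adjusted p = 2.88e-05), and Gckr, the glucokinase regulator, fell at levels of at most 1.07 CPM (-2.61, adjusted p = 0.00617). Mpc1 fell and Mpc2 rose, the 2 subunits of the mitochondrial pyruvate carrier (-0.74 and 0.48, adjusted p = 0.000268 and 0.0299). In sWAT Slc16a7 and Ldhd were also called lower (-1.57 and -0.92, adjusted p = 0.0244 and 0.0452), and Gpt had -0.94 (adjusted p = 0.134). Their sWAT libraries did not overlap between the genotypes. The sWAT calls of Slc16a7 and Ldhd held in 3 and 1 of the 8 fits that left out 1 library.

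Of 7 genes of the malate-aspartate shuttle, which carries NADH into mitochondria, 4 rose in BAT, 1 fell and 2 were not called. Over all genes tested in BAT, 16% rose and 15.8% fell. Got1 was 12 to 17.6 CPM in Ctrl and 30.2 to 53.4 in Csn8AKO (2.83-fold, adjusted p = 8.75e-06), and Got2, Slc25a12 and Slc25a13 had log2 fold changes of 0.93, 0.57 and 1.05 (adjusted p = 0.000151, 0.00347 and 0.0159). Slc25a13 was low, at 0.432 CPM on average in Ctrl and 0.863 in Csn8AKO. Slc25a11, the carrier that exchanges malate and oxoglutarate, fell (-0.33, adjusted p = 0.0258), and Mdh1 and Mdh2, the malate dehydrogenases, had 0.22 and -0.17 (adjusted p = 0.141 and 0.35). In sWAT Got1, Got2, Slc25a12 and Slc25a13 had log2 fold changes of 0.51, 0.42, 0.23 and 0.74. None of them was called there (adjusted p = 0.184, 0.153, 0.485 and 0.202). Gpd2, the mitochondrial partner of Gpd1 in the glycerol 3-phosphate shuttle, fell in BAT from 1196 to 1467 CPM in Ctrl to 560 to 1146 in Csn8AKO (-0.82, adjusted p = 0.00246) and in sWAT from 73.2 to 174 CPM to 28.3 to 31.6 (-1.86, adjusted p = 0.00333). Both steps of that shuttle thus fell in both tissues. Among other sources of NADPH in BAT, Me1, the cytosolic malic enzyme, and Aldh1l2 rose (0.97 and 1.13, adjusted p = 0.000572 and 0.013), and Me3, Idh2, Aldh1l1 and, in the endoplasmic reticulum, H6pd fell (-0.95, -0.61, -0.72 and -0.94). Aldh1l2 was low, at 0.960 CPM on average in BAT Ctrl and 2.07 in BAT Csn8AKO. In sWAT H6pd, Idh2 and Aldh1l1 fell as well, by 0.70, 0.92 and 0.97 on the log2 scale. Me1 had the opposite sign in sWAT, at 238 to 905 CPM in Ctrl and 90 to 236 in Csn8AKO (-1.20, adjusted p = 0.215). In edgeR's test of the tissue difference, 3 of 64 other pathway genes were called, against 2.36% of all genes tested. Me1 and Got1 were more positive in BAT by 2.16 and 0.98, and Bpgm had -0.97 (adjusted p = 0.035, 0.0488 and 0.0122). Pdp2, a phosphatase that switches the pyruvate dehydrogenase complex on, fell in sWAT from 35.3 to 42.5 CPM in Ctrl to 15.1 to 21.2 in Csn8AKO (-1.04, adjusted p = 0.00427), and the lipogenic transcription factors Mlxipl, which is ChREBP, and Srebf1 fell there too (-1.65 and -1.39, adjusted p = 0.0347 and 0.0314). Pdp2 also fell in BAT (-0.57, adjusted p = 0.0223), a call kept in 5 of 10 fits that left out 1 library. Pdp1, another such phosphatase, had 0.50 in sWAT without overlap and 0.09 in BAT (adjusted p = 0.114 and 0.669). These sWAT calls of H6pd, Idh2, Aldh1l1, Mlxipl and Srebf1 were lost without any of Ctrl replicates 2, 3 and 4 and Csn8AKO replicates 1 and 3, those of H6pd and Srebf1 also without Ctrl replicate 1 and that of Mlxipl also without Csn8AKO replicate 2, with adjusted p up to 0.122, 0.103, 0.146, 0.104 and 0.0985. The sWAT call of Pdp2 held in all 8 such fits. In BAT that of Mpc2 was lost without any of Ctrl replicates 2, 4 and 5 and Csn8AKO 3, 4 and 5 (adjusted p up to 0.0729), Slc16a3 without any but Ctrl 2 and 5 and Csn8AKO 2 (0.122), Slc25a11 without any of Ctrl 3 and Csn8AKO 1, 3, 4 and 5 (0.0731), Slc25a13 without Csn8AKO 4 (0.0644), Idh2 without any of Ctrl 1 and 4 and Csn8AKO 1, 3, 4 and 5 (0.064) and Aldh1l1 without any but Ctrl 5 and Csn8AKO 1 and 2 (0.109). In BAT Mlxipl fell by 0.39 on the log2 scale (adjusted p = 0.006).

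Markers of other cells moved with the genotype in the same libraries. The summed level of 15 macrophage markers was 1172 to 1540 CPM in sWAT Ctrl and 2257 to 3539 in sWAT Csn8AKO. There 12 of 15 rose, as did 2.3% of all genes tested. In BAT the macrophage sum was 101.2 to 146 CPM in Ctrl and 461 to 708 in Csn8AKO, and 14 of 15 rose (16% of all genes tested did). Per 1000 CPM of this sum, Hk3 was 7.59 to 8.81 CPM in sWAT Ctrl and 6.78 to 11.3 in Csn8AKO, and 11.5 to 16 and 8.18 to 13.1 in BAT. The groups overlapped on this scale in both tissues, unlike the CPM themselves. Hk1 was 274 to 498 CPM per 1000 CPM of the sum in BAT Ctrl and 154 to 410 in BAT Csn8AKO. In sWAT it was 24 to 45.7 in Ctrl and 13.6 to 27 in Csn8AKO, and the groups overlapped in both tissues. Hk1 is found in nearly all cells, so a rise of the macrophage sum lowers this ratio whatever the source of Hk1. All 10 fibroblast and progenitor markers rose in BAT, from a sum of 1066 to 1812 CPM in Ctrl to 2771 to 4750 in Csn8AKO. The part of these cells in the rise of Hk1, Hk3 and Pdk3 was not tested.

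Per 1000 CPM of the adipocyte sum, which was lower in sWAT Csn8AKO, Gpd1 was 25.4 to 42.5 CPM in sWAT Ctrl and 19.6 to 27.7 in Csn8AKO, and Pck1 82.4 to 134 and 76.1 to 92.2. These overlapped. Pfkfb1 was 1.92 to 2.16 CPM in sWAT Ctrl and 1.37 to 1.84 in Csn8AKO on the same scale, which did not overlap. In BAT, where the adipocyte sums of the genotypes overlapped, Gpd1 was 376 to 502 CPM per 1000 CPM in Ctrl and 176 to 283 in Csn8AKO, and Pfkfb1 3.03 to 4.92 and 1.62 to 2.87, both apart, while Pck1 was 183 to 439 and 167 to 284. Of the 12 adipocyte markers, 3 were called lower and 1 higher in BAT, where 15.8% and 16% of all genes tested were. In sWAT 4 were lower and 0 higher, against 3% and 2.3%.

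The summed level of 17 skeletal muscle markers was 483 to 5855 CPM in sWAT Ctrl and 221 to 3580 in sWAT Csn8AKO, and 26.1 to 44.6 CPM in BAT Ctrl and 32.5 to 590 in BAT Csn8AKO. Eno3 was 84.9 CPM in sWAT Ctrl replicate 3 and 47.6 in sWAT Csn8AKO replicate 4, the muscle-high libraries, against 14.1 to 19.4 and 8.37 to 15.2 in the others. In BAT Csn8AKO replicates 1 and 5 it was 7.89 and 9.49 CPM against 3.39, 3.85 and 4.27 in replicates 2, 3 and 4, and 8.58 to 11.7 in Ctrl. Among the BAT Csn8AKO libraries, the 3 with the least muscle signal had the lowest Eno3. Their muscle sums, 32.5 to 34.8 CPM, lay within the range of BAT Ctrl, where Eno3 was higher. The cause was not tested. Pfkm had no such split in BAT, with 77.2 and 53.2 CPM in the muscle-high libraries and 55.5 to 82 in the others.

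**Figure D4:**
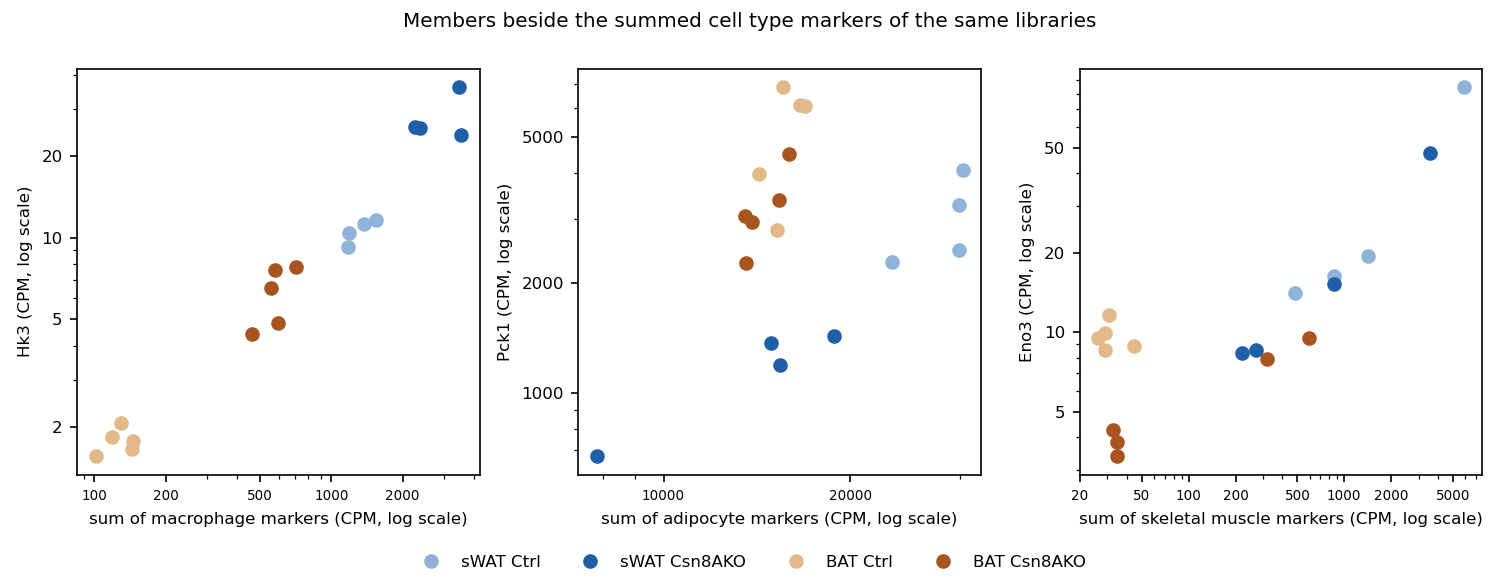
CPM of Hk3, Pck1 and Eno3 in each library (log scale) beside the summed CPM of macrophage, adipocyte and skeletal muscle markers (log scale), with 1 point per library coloured by group. Hk3 is higher in the groups with a higher macrophage sum, sWAT Csn8AKO holds the lowest Pck1 points, and the highest Eno3 points are the muscle-high sWAT libraries at 84.9 and 47.6 CPM.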

How the data were processed

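RNA was depleted of ribosomal RNA, reverse transcribed from random hexamers and sequenced as paired reads from 18 libraries, 1 mouse each. STAR was used by the authors for alignment to GRCm38, and for each of 55487 genes they deposited the count of reads, made with featureCounts from reads with a single, unambiguous place. The strand setting of the counting is not given in the sources used here. The deposited CPM, FPKM and TPM were made by the authors from these counts, and none of them was used.

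The deposited counts were compared between genotypes within each tissue with edgeR 4.0.16 in R 4.3.3 (TMM factors, robust quasi-likelihood test, low counts removed by filterByExpr at its settings of 10 for the count and 15 for the total), with Benjamini-Hochberg adjustment over all genes tested and calls at an adjusted p under 0.05. The difference between the tissues was the interaction over all libraries. Values printed are CPM after TMM scaling, and shares of isozymes are reads per base of exon. Of the 55487 genes, 55141 matched a symbol and 54870 lay at the same position in GENCODE M21. Where 2 gene models had the same symbol, the longer one was used. Of the 37 genes, 14 share exon bases with another gene.

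The genes, the lists of other pathway genes and markers and the tests were chosen with earlier results of these data known. Library values are given for genes past both thresholds (adjusted p under 0.05 and a log2 fold change of at least 1 in either direction), or called in the tissue difference, and for their partner isozymes; other pathway genes are named by the same thresholds, and Cops8 as the targeted gene. Further genes were named after their values were seen. Each mouse was a replicate. Alternatives were RLE factors, library size alone, no filter, no ribosomal RNA genes, DESeq2 1.42.0, a replicate block, all 4 groups in 1 fit, each library left out, and, chosen after seeing the data, the muscle-high or lymphocyte-high libraries left out. The ratios to marker sums were also chosen after seeing the data. Scripts were tested on simulated data.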

Additional observations from a re-analysis of the deposited data

Results flagged for a closer look

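Within groups of 4 or 5 libraries, 20 of 147 combinations of gene and group held a library that stood apart from the others by Dixon's test at 95%, where chance gives about 1 in 20. Of these, 11 lay in 2 libraries. The rate of 1 in 20 is for normally distributed values, and genes measured in the same library are not independent. sWAT Ctrl replicate 2 was the highest of its group for Tkt at 2244 CPM (600 to 679 in the others), Pgd at 361 CPM (140 to 146), G6pdx at 179 CPM (104 to 115), Eno1 at 652 CPM (291 to 312), Pkm at 601 CPM (257 to 279) and Dlat at 128 CPM (71.8 to 78.9). BAT Csn8AKO replicate 2 was the highest of its group for Aldoa at 4211 CPM (2092 to 2622), Tpi1 at 425 CPM (310 to 335), Pgk1 at 369 CPM (275 to 298), Pdha1 at 1379 CPM (882 to 1024) and Fbp2 at 4.93 CPM (2.07 to 2.82).

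The other libraries that stood apart did so for 1 or 2 genes each. sWAT Csn8AKO replicate 3 had the highest Hk3 of its group at 36 CPM (24 to 25.6 in the others). sWAT Ctrl replicate 3, a muscle-high library, had the highest Eno3 at 84.9 CPM (14.1 to 19.4), and sWAT Csn8AKO replicate 4, the other one in sWAT, the highest Fbp2 at 0.673 CPM (0.226 to 0.278). sWAT Ctrl replicate 1 had the highest Aldoc at 0.724 CPM (0.178 to 0.208) and the lowest Pdk4 at 47.3 CPM (103 to 113), and sWAT Csn8AKO replicate 2 the lowest Taldo1 at 101.3 CPM (166 to 179), both of them lymphocyte-high libraries. In BAT, Ctrl replicate 5 had the lowest Pfkm at 116 CPM (133 to 138), Ctrl replicate 3 the highest Pdha1 at 1898 CPM (1553 to 1649), and Csn8AKO replicate 1 the lowest Pgam1 at 149 CPM (196 to 209).

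Within the set, the effect of the genotype differed between the tissues in edgeR's test for Hk1, by 1.27 on the log2 scale, and for Pdk3, by 1.17, both greater in BAT.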

How the results depend on the processing

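In sWAT, where 1 gene of the set was higher and 3 were lower, library size alone gave 0 and 6, no filter gave 5 lower, DESeq2 8 lower, all 4 groups in 1 fit 11 lower, the muscle-high libraries left out 1 lower and the lymphocyte-high libraries left out 6 lower. Leaving out 1 library gave 1 higher each time and between 1 and 5 lower. It was 1 without any of Ctrl replicates 2, 3 and 4 and Csn8AKO replicates 1 and 3, and 5 without Ctrl replicate 1 or Csn8AKO replicate 4. In BAT, where 7 were higher and 15 lower, all 4 groups in 1 fit gave 4 and 9, and leaving out 1 library gave 4 to 7 higher, with 4 without any of Ctrl replicates 1, 2 and 4, and 11 to 19 lower. Single libraries decided 7 BAT calls. Pfkl was lost without any of Ctrl replicates 1, 2, 4 and 5 and Csn8AKO 2 and 4 (adjusted p up to 0.0911), Eno3 without any but Csn8AKO 1 or 5 (up to 0.108), Ldha without any of Ctrl 3, 4 and 5 and Csn8AKO 3, 4 and 5 (up to 0.0968), Pck1 without any but Ctrl 1 and 2 and Csn8AKO 2 (up to 0.104), Pck2 without any of Ctrl 2, 4 and 5 and Csn8AKO 3, 4 and 5 (up to 0.0813), Pcx without any but Ctrl 3 and Csn8AKO 2 and 4 (up to 0.102) and Pgd without any of Ctrl 1, 2 and 4 and Csn8AKO 1, 2 and 3 (up to 0.0916). The tissue difference was called for 1 gene, not 2, with no filter and without the 4 muscle-high libraries, and for 1 to 3 with 1 library left out (1 without any of sWAT Ctrl 1 and 2, sWAT Csn8AKO 1, BAT Ctrl 2, 4 and 5 and BAT Csn8AKO 3, 4 and 5).

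Of the other pathway genes in sWAT (0 higher and 9 lower), 1 was higher without ribosomal RNA genes, with DESeq2, with all 4 groups in 1 fit and without the lymphocyte-high libraries, and 5 were lower with library size alone, 14 with DESeq2, 18 with all 4 groups in 1 fit and 5 without the muscle-high libraries. Leaving out 1 library gave 0 or 1 higher (1 without Csn8AKO 2) and 2 to 8 lower (2 or 3 without any of Ctrl 2, 3 and 4 and Csn8AKO 1 and 3). In BAT (13 and 20), library size alone gave 12 lower and leaving out 1 library 13 to 25 (13 without Csn8AKO 4 or 5). Scaling by library size alone moved the median log2 fold change of all genes from 0.01 to 0.14 in BAT, and the calls over all genes from 3585 higher and 3536 lower to 4183 and 2087.

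Whether the replicate numbers pair the mice is not given in the sources used here, and the main fits did not pair them. The correlation of the deviations of libraries with the same number was between -0.38 and 0.22 in sWAT and between -0.09 and 0.09 in BAT. Such values cannot decide whether the mice were paired. With a replicate block, 1 gene of the set was higher and 2 were lower in sWAT, 4 and 14 in BAT, and 1 was called in the tissue difference. Of the other pathway genes 2 were lower in sWAT with the block.

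Genes that were not called changed sign under some settings. With library size alone, the log2 fold change was -0.14 for Pdk4 and -0.071 for G6pdx in sWAT and 0.10 for Gpi1 and 0.059 for Taldo1 in BAT. Without a filter Pdk4 was -0.0015 in sWAT. Without the muscle-high libraries the values were -0.10 for Pdk4, -0.047 for G6pdx and -0.042 for Pgd in sWAT and 0.0029 for Hk2, 0.077 for Gpi1 and 0.048 for Taldo1 in BAT, and without the lymphocyte-high libraries -0.064 for Pdk4. With 1 library left out, values ran in sWAT from -0.31 to 0.030 for Tpi1, from -0.61 to 0.028 for Gapdh, from -0.13 to 0.034 for Pgk1, from -0.39 to 0.024 for Pgam1, from -1.67 to 0.25 for Eno3, from -0.15 to 0.021 for Pdk3, from -0.19 to 0.15 for Pdk4 and from -0.10 to 0.24 for G6pdx, and in BAT from -0.11 to 0.079 for Gpi1, from -0.31 to 0.017 for Pfkfb3, from -0.0038 to 0.13 for Tpi1 and from -0.17 to 0.031 for Taldo1. No gene called in the set reversed. The causes of these changes were not tested. With 4 or 5 mice per group, genes that were not called are not shown to be alike, and few reads limit Fbp1 in both tissues and Aldoc and Fbp2 in sWAT.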
